A study of Mus musculus with 8 samples.

Results

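Complex I, NADH:ubiquinone oxidoreductase, was followed through the messenger RNA of its nuclear genes in mouse white quadriceps with and without the thioesterase Acot2 in muscle. Members were all genes whose name starts with Nduf, provided that 4 or more of the 8 libraries held 10 or more normalized reads. Normalized reads are read counts scaled by a single factor for each library, recovered from the deposited log2 values. The table held 45 Nduf rows among 54091, and 44 of them passed, among 13638 genes tested. They comprised 7 nuclear core subunits, 28 accessory subunits, the 7 assembly factors Ndufaf1 to Ndufaf7, and Ndufa4 and Ndufa4l2, which carry the Nduf name but are not counted as complex I subunits. The processed pseudogene Ndufab1-ps did not pass, with 0 to 5.67 normalized reads in Cre and 1.91 to 4.02 in Loxp libraries.

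The knockout animals, called Cre here, carried a Cre recombinase under the muscle creatine kinase promoter (CKM Cre) that removes Acot2 in muscle, and the control animals, called Loxp, had the genotype Loxp/Loxp. Each group had 4 male mice of 11 to 14 weeks, all fed chow, and the white part of the quadriceps was taken from each. No Cre is named in the control genotype, and the effects of recombinase and of Acot2 loss cannot be told apart. The Ckm promoter acts in muscle fibres, so other cells of the tissue keep Acot2. In whole tissue, fewer cells of a type and less RNA per cell cannot be told apart.

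Complex I takes electrons from NADH through a flavin and a chain of iron-sulfur clusters to ubiquinone and pumps protons across the inner mitochondrial membrane. Its core subunits carry out this chemistry and are conserved in bacteria. Those of the peripheral arm are encoded in the nucleus, and those of the membrane arm, ND1 to ND6 and ND4L, in mitochondrial DNA. Accessory subunits surround and stabilise the core, and assembly factors help to build the complex without staying in it. Oxidative fibres hold more of this machinery than the fast glycolytic fibres that make up most of the white quadriceps.

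Each library held between 30415437 and 48834289 recovered reads. Acot2 averaged 47.3 ± 5.03 normalized reads in Cre and 213 ± 45.9 in Loxp libraries (SD, n = 4 each), a log2 difference of -2.13 (limma adjusted p = 0.000962; exact two-sided permutation p = 0.0286, the smallest that 4 against 4 libraries allow), and the groups did not overlap. The 10 muscle fibre markers were found and tested, with 6.00e+06 to 7.07e+06 summed normalized reads in Cre and 6.33e+06 to 7.32e+06 in Loxp libraries. Individual libraries stood apart within the groups. Loxp 2 and Loxp 3 had high adipocyte genes and Cre 3 and Cre 4 had high slow fibre genes. The summed reads of the list named oxidative fast fibre differed more than 10-fold between libraries. Cre 3 and Loxp 2 lay at opposite ends for most complex I subunits, and results are therefore also given without them.

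No complex I gene passed the test between Cre and Loxp muscle, although most subunits had slightly higher values in Cre. All 7 core subunits, 25 of the 28 accessory subunits and 5 of the 7 Ndufaf factors had a log2 difference above 0. Over all 13638 tested genes the share above 0 was 51.7%, and over the 2841 genes in the abundance range of the subunits it was 61.0%. None of the 44 members was called at a limma adjusted p under 0.05, against 0.0147% of all tested genes (2 genes), and every member had an adjusted p = 0.9995. None had an unadjusted p under 0.05 either, against 2.91% of all tested genes, and no member had Cre and Loxp libraries that did not overlap, against 1.92%.

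The differences were small beside their errors. The median log2 difference was 0.12 for the core subunits, 0.088 for the accessory subunits and 0.077 for the Ndufaf factors, against 0.0049 for all tested genes and 0.018 for genes in the subunits' abundance range. Standard errors of the 35 subunits ran from 0.070 to 0.13. The 95% confidence intervals of the 35 subunits together spanned ratios of Cre to Loxp from 0.844 to 1.35, so larger changes of any of these subunits lay outside its interval. Without Cre replicate 3 the medians were 0.040, 0.011 and 0.072 for core, accessory and Ndufaf genes, and without Loxp replicate 2 they were 0.030, 0.024 and 0.044. The accessory subunits above 0 then numbered 19 and 20 of 28. Cre 3 and Loxp 2 were chosen as the ends of the subunits, so leaving out either lowers the subunits' difference. Leaving out Cre replicate 1 instead gave medians of 0.17, 0.13 and 0.093 for core, accessory and Ndufaf genes. Leaving out Loxp replicate 3 gave 0.19, 0.14 and 0.11. In both of these settings 27 of 28 accessory subunits lay above 0. Without Cre replicates 3 and 4 together, 3 of 7 core and 12 of 28 accessory subunits lay above 0. Without Loxp replicates 2 and 3 together, 7 of 7 core and 24 of 28 accessory subunits did, with medians of 0.087, 0.054 and 0.081 for core, accessory and Ndufaf genes.

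**Figure D1:**
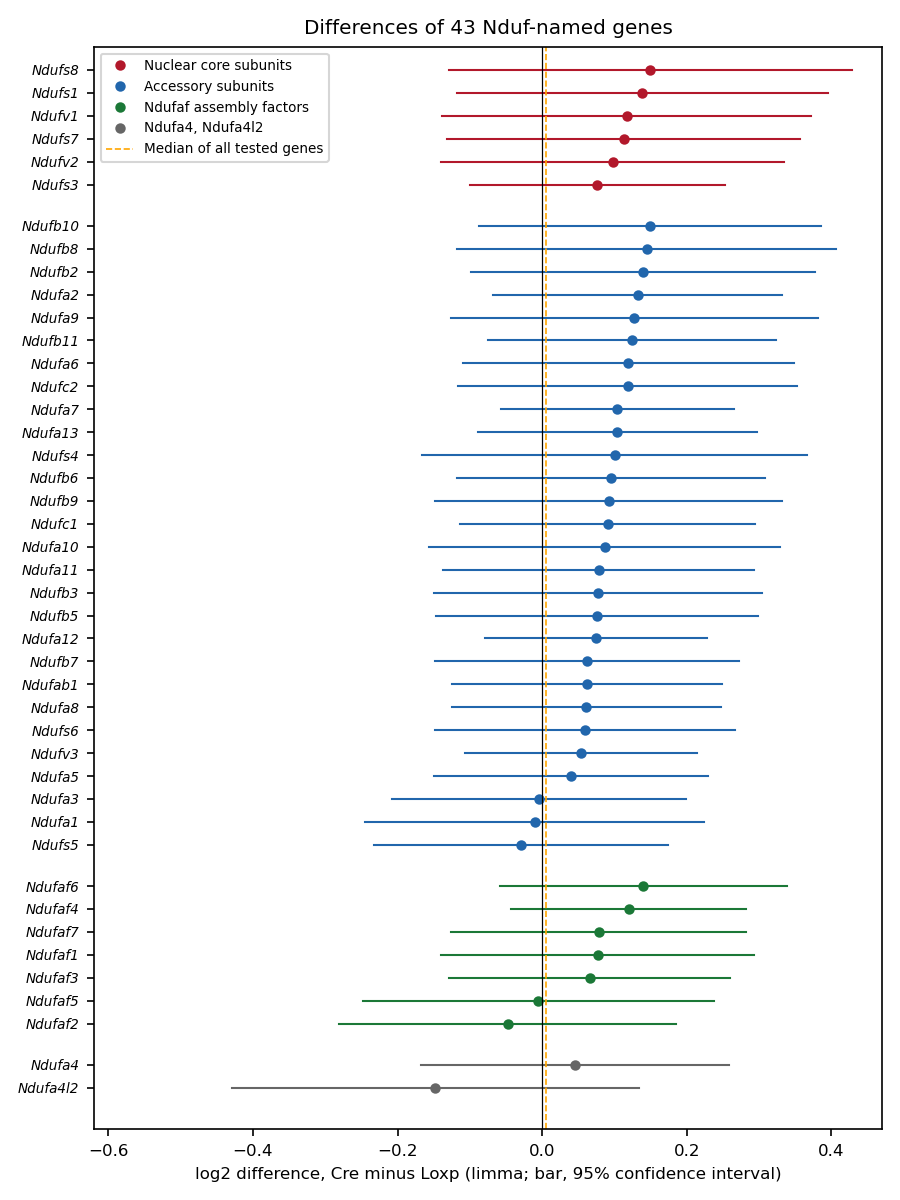
Difference of 43 Nduf-named genes on the log2 scale (Cre minus Loxp, horizontal axis), by class and in order of size. Points are limma estimates from 4 Cre and 4 Loxp libraries, bars are 95% confidence intervals and the dashed line is the median of all tested genes at 0.0049. Every interval includes 0, and the points run from -0.15 for Ndufa4l2 to 0.15 for Ndufs8.

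The core subunits of the NADH-oxidising module at the tip of the peripheral arm are Ndufv1, Ndufv2 and Ndufs1. Ndufv1, which binds NADH and carries the flavin (chromosome 19, 4007384 to 4012806 of GRCm38, minus strand), had 6737, 7508, 9228 and 8233 normalized reads in Cre libraries 1 to 4, against 7524, 5946, 8502 and 7311 in Loxp libraries 1 to 4. Cre 3 was the highest and Loxp 2 the lowest, and the other libraries of both groups lay mixed between them. Ndufv2, which holds an iron-sulfur cluster beside the flavin (chromosome 17, 66078638 to 66101559, minus strand), had 7051, 7224, 9090 and 7627 normalized reads in Cre libraries 1 to 4, against 7539, 5934, 8332 and 7233 in Loxp libraries 1 to 4. Ndufs1, the largest core subunit of the arm and the carrier of several clusters (chromosome 1, 63143596 to 63176833, minus strand), had 11978, 13865, 17309 and 15061 normalized reads in Cre libraries 1 to 4, against 13564, 11165, 15140 and 12862 in Loxp libraries 1 to 4. The same libraries stood at the ends for both genes. The log2 differences were 0.12 for Ndufv1 (SE 0.12), 0.097 for Ndufv2 (SE 0.11) and 0.14 for Ndufs1 (SE 0.12), each with limma adjusted p = 0.9995.

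The module that passes electrons to ubiquinone includes the core subunits Ndufs3, Ndufs7 and Ndufs8. Ndufs7, which carries the last cluster before ubiquinone (chromosome 10, 80249121 to 80256794, plus strand), had 4117, 4476, 5594 and 4436 normalized reads in Cre libraries 1 to 4, against 4395, 3586, 5003 and 4243 in Loxp libraries 1 to 4. Loxp 3 was second to Cre 3, and the groups overlapped. Ndufs8, another cluster carrier (chromosome 19, 3908863 to 3912774, minus strand), had 2306, 2701, 3169 and 2847 normalized reads in Cre libraries 1 to 4, against 2609, 1964, 3011 and 2407 in Loxp libraries 1 to 4. Ndufs3, a structural subunit of the module (chromosome 2, 90894634 to 90904827, minus strand), had 3145, 3323, 3919 and 3605 normalized reads in Cre libraries 1 to 4, against 3420, 3004, 3593 and 3237 in Loxp libraries 1 to 4. Ndufs8 varied most between libraries among the core subunits and Ndufs3 least, with SDs of 0.22 and 0.12 on the log2 scale. The log2 differences were 0.11 for Ndufs7 (SE 0.11), 0.15 for Ndufs8 (SE 0.13) and 0.076 for Ndufs3 (SE 0.080), each with limma adjusted p = 0.9995. Of the 50-base stretches in Ndufs3 transcripts, 35.8% also occur in transcripts of another annotated gene, so its reads are the least certain of the core genes. The share was 26.2% for the accessory subunit Ndufa12 and 23.4% for Ndufb9.

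Among accessory subunits, the 4 with the smallest unadjusted p were Ndufa2, Ndufa7, Ndufb10 and Ndufb11. Ndufa2, a small subunit of the NADH module with a thioredoxin-like fold, had 2237, 2380, 2784 and 2530 normalized reads in Cre libraries 1 to 4, against 2353, 1909, 2427 and 2386 in Loxp libraries 1 to 4. Ndufa7, of the peripheral arm, had 2516, 2529, 2945 and 2476 normalized reads in Cre libraries 1 to 4, against 2516, 2195, 2501 and 2517 in Loxp libraries 1 to 4. Apart from the high Cre 3 and the low Loxp 2, the 6 other libraries of Ndufa7 lay within 2476 to 2529. Ndufb10, of the membrane arm, had 3854, 4104, 4991 and 4504 normalized reads in Cre libraries 1 to 4, against 3907, 3310, 4706 and 3864 in Loxp libraries 1 to 4. Ndufb11, also of the membrane arm and encoded on the X chromosome, had 4672, 4749, 5554 and 4791 normalized reads in Cre libraries 1 to 4, against 4722, 3800, 5059 and 4605 in Loxp libraries 1 to 4. All 4 genes were highest in Cre 3 and lowest in Loxp 2. Their log2 differences were 0.13 for Ndufa2 (SE 0.091), 0.10 for Ndufa7 (SE 0.073), 0.15 for Ndufb10 (SE 0.11) and 0.12 for Ndufb11 (SE 0.091), each with limma adjusted p = 0.9995. Without Loxp replicate 3, the difference of Ndufb10 was 0.24. By contrast, the highest log2 difference of any accessory subunit was 0.082 without Cre replicate 3 and 0.068 without Loxp replicate 2.

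The 3 accessory subunits below 0 were Ndufs5, Ndufa1 and Ndufa3, named here after their values were seen. Ndufs5, a subunit of the intermembrane space side, averaged 1144 ± 128 normalized reads in Cre and 1165 ± 98.9 in Loxp libraries (SD, n = 4 each), a log2 difference of -0.029 (SE 0.093). Of its 50-base stretches, 21.7% also occur in transcripts of the gene BC002163. Ndufa1, an X-linked membrane-arm subunit, averaged 1839 ± 255 in Cre and 1849 ± 207 in Loxp libraries, and Ndufa3, also a membrane subunit, 2638 ± 352 in Cre and 2634 ± 197 in Loxp libraries. These differences of -0.011 (SE 0.107) and -0.0040 (SE 0.093) on the log2 scale were far below their errors, and the sign for Ndufa3 depends on the scale, since its mean of normalized reads was slightly higher in Cre.

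The Ndufaf factors were less alike than the subunits. Ndufaf4, which with Ndufaf3 serves the quinone module, had 1571, 1743, 1874 and 1678 normalized reads in Cre libraries 1 to 4, against 1539, 1502, 1756 and 1523 in Loxp libraries 1 to 4. It had the smallest unadjusted p of all 44 members, with a log2 difference of 0.12 (SE 0.074, limma adjusted p = 0.9995). All 4 Cre libraries lay above Loxp 1, 2 and 4, and Loxp 3 lay above all Cre libraries but Cre 3. Ndufaf6, needed for the biogenesis of the same arm, had 462, 512, 579 and 540 normalized reads in Cre libraries 1 to 4, against 444, 451, 518 and 485 in Loxp libraries 1 to 4. Its log2 difference was 0.14 (SE 0.090, limma adjusted p = 0.9995), and here Loxp 1, not Loxp 2, was the lowest library. Ndufaf7, a methyltransferase needed for assembly of the peripheral arm, had 407, 445, 420 and 390 normalized reads in Cre libraries 1 to 4, against 409, 338, 421 and 410 in Loxp libraries 1 to 4, and all but Loxp 2 lay close together. Its log2 difference was 0.078 (SE 0.093).

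Ndufaf1, a part of the assembly complex of the membrane arm that also holds Acad9, Ecsit and Tmem126b, had 1019, 944, 1312 and 1154 normalized reads in Cre libraries 1 to 4, against 1020, 974, 1122 and 1057 in Loxp libraries 1 to 4. Its log2 difference of 0.077 (SE 0.099) became -0.0086 without Cre replicate 3. Ndufaf5, which hydroxylates Ndufs7, had 981, 895, 1192 and 784 normalized reads in Cre libraries 1 to 4, against 970, 992, 965 and 898 in Loxp libraries 1 to 4. The highest and the lowest library were both Cre, so that the Cre libraries spanned the Loxp libraries on both sides, and the log2 difference was -0.0055 (SE 0.11). Ndufaf2, a chaperone that gives way to Ndufa12 late in assembly, and Ndufaf3 had the fewest reads among Ndufaf1 to Ndufaf7. Ndufaf2 averaged 163 ± 11.0 normalized reads in Cre and 169 ± 6.43 in Loxp libraries, and Ndufaf3 300 ± 14.0 in Cre and 287 ± 18.2 in Loxp libraries (SD, n = 4 each).

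Of 12 listed assembly factors with other names, 11 were found and all of these were tested; 10 lay above 0, with a median log2 difference of 0.078, and none was called or had an unadjusted p under 0.05. Tmem126b averaged 1051 ± 60.8 normalized reads in Cre and 934 ± 87.5 in Loxp libraries (SD, n = 4 each), a log2 difference of 0.17 (SE 0.080, limma adjusted p = 0.9995). Every Cre library lay above every Loxp library, but only just, with the lowest Cre library at 1010 and the highest Loxp library at 1005. Groups that did not overlap, in either direction, were found in 1.92% of all tested genes. Foxred1, an oxidoreductase needed in late assembly, averaged 466 ± 59.0 in Cre and 405 ± 53.8 in Loxp libraries, with a log2 difference of 0.20 (SE 0.12). Acad9, which is also an acyl-CoA dehydrogenase, differed by 0.069 (SE 0.071) and Ecsit by 0.024 (SE 0.076). Ndufaf8, which the table lists as 1810043H04Rik and which the name rule therefore missed, averaged 290 ± 28.6 normalized reads in Cre and 267 ± 26.5 in Loxp libraries, a log2 difference of 0.12 (SE 0.11).

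Levels were compared between genes per length, as normalized reads per 1000 bases of the shortest principal transcript of each gene in the GENCODE annotation. The core subunits had a median of 4590 normalized reads per 1000 bases as the mean of all libraries, with Ndufs3 at 3256 and Ndufs7 at 5912. The accessory subunits ran from 1499 to 11512 with a median of 3946, and the Ndufaf factors from 197 (Ndufaf3) to 823 (Ndufaf5) with a median of 454. Every Ndufaf factor thus lay below every subunit by this measure.

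The ends of the accessory range depend on which transcript a length is taken from. Ndufc1, of the membrane arm, was highest at 11881 per 1000 bases in Cre and 11144 in Loxp libraries with its shortest principal transcript, but 2903 over both groups when the exons of all its coding transcripts were joined. Ndufab1, the mitochondrial acyl carrier protein that is bound to complex I and also serves fatty acid synthesis, was lowest at 1534 in Cre and 1464 in Loxp libraries. With joined exons Ndufb9 was the highest accessory subunit at 7391 and Ndufb2 the lowest at 341, against 3277 with its short transcript. With joined exons the highest Ndufaf factor, Ndufaf5 at 823, lay above Ndufab1 and Ndufb2, and the lowest was Ndufaf7 at 150. Ndufb9, Ndufb2, Ndufc1 and Ndufab1 had log2 differences of 0.092 (SE 0.11), 0.14 (SE 0.11), 0.091 (SE 0.093) and 0.062 (SE 0.085) between Cre and Loxp.

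Ndufa4 and Ndufa4l2 marked the top and the bottom of the order. Ndufa4, now counted as a subunit of complex IV (cytochrome c oxidase), had 8124, 9208, 10646 and 8811 normalized reads in Cre libraries 1 to 4, against 9039, 7674, 10079 and 8839 in Loxp libraries 1 to 4, or 20348 per 1000 bases in Cre and 19707 in Loxp. It followed the subunits from library to library, with a log2 difference of 0.046 (SE 0.097). Ndufa4l2, a paralogue known to be induced in hypoxia, had 117, 109, 130 and 115 normalized reads in Cre libraries 1 to 4, against 131, 114, 136 and 143 in Loxp libraries 1 to 4, or 126 per 1000 bases in Cre and 140 in Loxp. Its log2 difference of -0.15 (SE 0.13, limma adjusted p = 0.9995) was the lowest of the 44, and the groups overlapped.

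**Figure D2:**
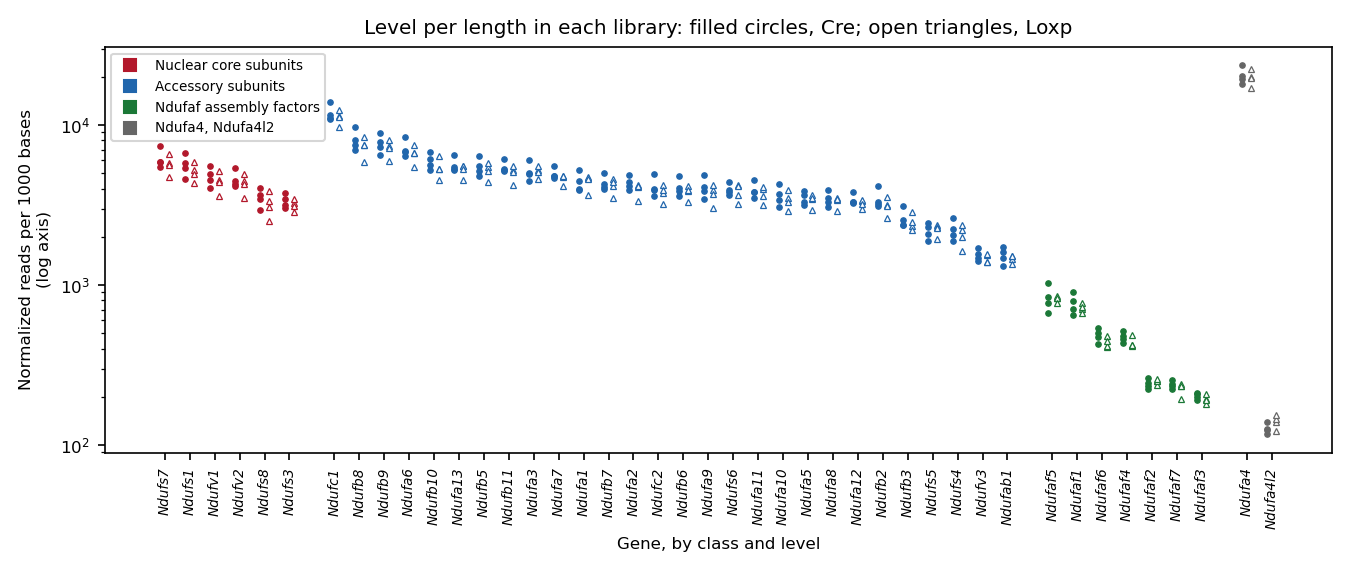
Level of 43 Nduf-named genes in each library as normalized reads per 1000 bases of the shortest principal transcript (vertical log axis), by class and in order of level. Filled circles are the 4 Cre and open triangles the 4 Loxp libraries. The Ndufaf factors (197 to 823 as means) lie below all core and accessory subunits (1499 to 11512), and for each gene the circles and triangles overlap.

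The subunits varied together from library to library far more than between the groups. All 35 were highest in Cre 3 and 32 of them were lowest in Loxp 2; Ndufa3 and Ndufab1 were lowest in Cre 1 and Ndufs5 in Cre 2. Of all tested genes, 18.6% were highest in Cre 3, 18.6% lowest in Loxp 2 and 7.11% both, and of the genes in the subunits' abundance range 30.9%, 25.8% and 15.3%. As the mean log2 deviation from each gene's own mean, the 35 subunits stood at -0.11, -0.019, 0.27 and 0.042 in Cre libraries 1 to 4, against 0.0079, -0.27, 0.11 and -0.033 in Loxp libraries 1 to 4. The highest library was thus 1.45 times the lowest, while the group means differed by 0.090 with SDs of 0.16 in each group (n = 4).

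**Figure D3:**
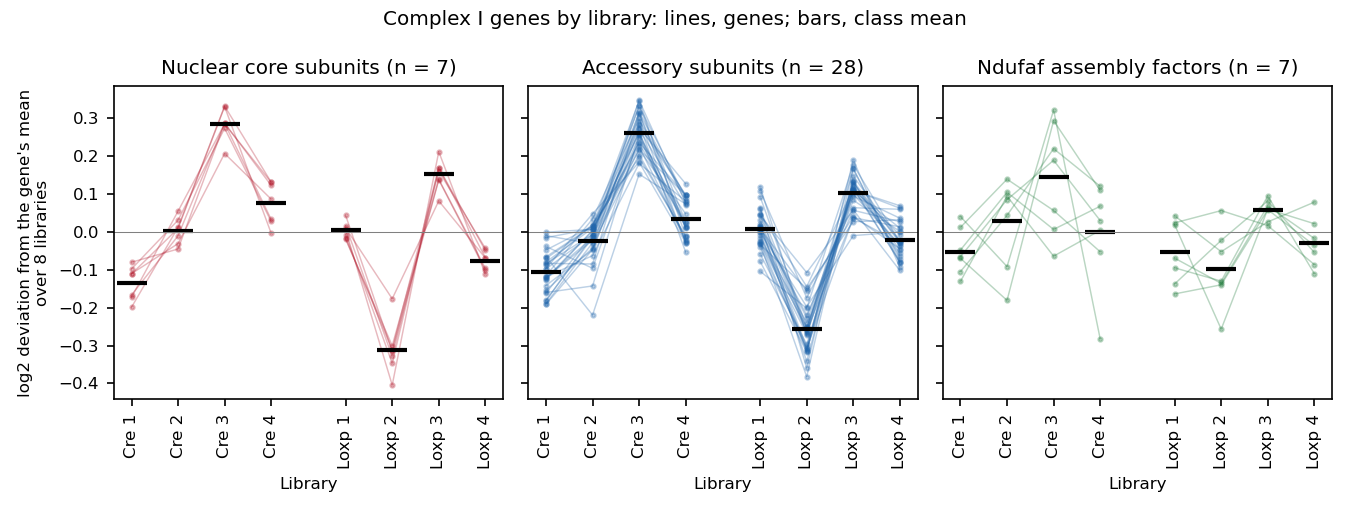
Deviation of each gene from its own mean over the 8 libraries (log2, vertical axis), with the Cre libraries left of the Loxp libraries in each panel. Lines are genes and black bars the mean of the class. The 7 core and 28 accessory subunits follow the same course with the highest values in Cre 3 and, for 32 of these 35, the lowest in Loxp 2, while the 7 Ndufaf factors are spread.

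When the mean of the other subunits was subtracted in each library, little spread was left in the subunits. Their SD over the 8 libraries had a median of 0.17 on the log2 scale before and 0.051 after, and it became smaller for all 35. The median for genes in the same abundance range was 0.099 before. Counting error alone would give the subunits an SD of 0.011 to 0.043 at their depth of 808 or more reads per library. The spread left was 0.997 to 5.21 times the counting error of each subunit, with a median of 2.15. Ndufb5 and Ndufa11, at the low end, were left with 0.024 and 0.032, against counting errors of 0.019 and 0.032. Among the subunits, Ndufs5 kept the most spread at 0.11, followed by Ndufs8 at 0.089 and Ndufv3 at 0.088; these genes were named after their values were seen. Ndufs1, with a counting error of only 0.012, kept 0.065.

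Among the 7 Ndufaf factors the subtraction reduced the spread of 3 (Ndufaf1, Ndufaf4 and Ndufaf6) and enlarged it for Ndufaf2, Ndufaf3, Ndufaf5 and Ndufaf7. The full subunit mean was subtracted, so a gene with little spread of its own can gain spread even where it follows the subunits weakly. A larger SD after the subtraction therefore does not show that a factor moved apart from the subunits. Ndufaf5 reached 0.19, above its 0.17 before and well above its counting error of 0.047. For Ndufaf2 and Ndufaf3 the spread before, 0.077 and 0.082, was no larger than the counting errors of 0.11 and 0.085 at 139 to 434 reads per library. The class mean of the Ndufaf factors was 0.15 in Cre 3 and -0.097 in Loxp 2, against 0.27 and -0.27 for the subunits.

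**Figure D4:**
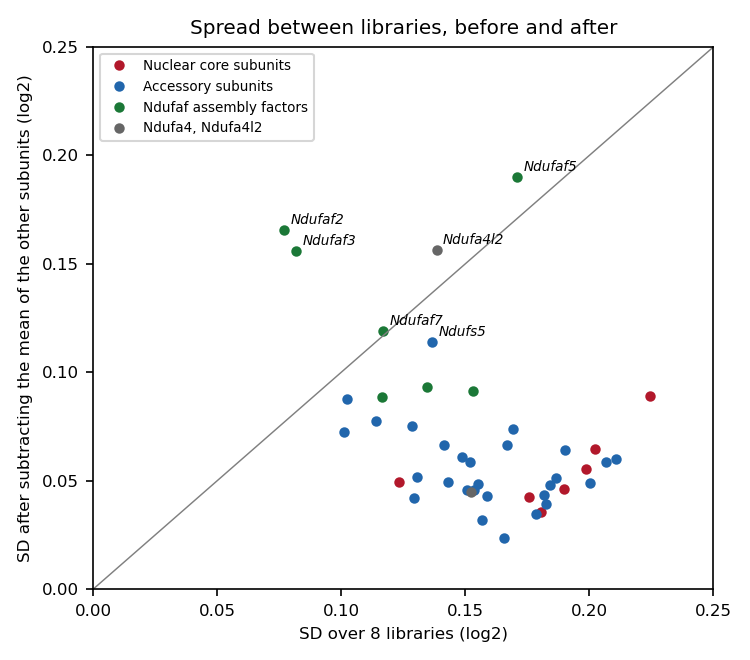
SD of each gene over the 8 libraries (log2, horizontal axis) against its SD after the mean of the other subunits was subtracted in each library (vertical axis). The grey line marks equal values. All 35 subunits lie below the line, while Ndufaf2, Ndufaf3, Ndufaf5, Ndufaf7 and Ndufa4l2 lie above it. A gene with a small SD before can come to lie above the line through the subtraction alone.

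The mitochondrially encoded core subunits had other libraries at their ends. Of the 7, 6 passed the filter, and the mean log2 deviations of these were -0.23, 0.073, 0.12 and 0.15 in Cre libraries 1 to 4, against -0.12, -0.15, -0.032 and 0.19 in Loxp libraries 1 to 4. The lowest library was Cre 1 and the highest Loxp 4, and not Loxp 2 and Cre 3 as for the nuclear subunits. Without ND3, which has few reads, the means of the 5 others were -0.32, 0.058, 0.0088 and 0.14 in Cre libraries 1 to 4, against -0.080, -0.070, 0.034 and 0.23 in Loxp libraries 1 to 4, an alternative chosen after seeing the data. Cre 1 and Loxp 4 remained the ends, while Cre 3 then lay close to 0. ND1 had 148334, 182507, 198227 and 174430 normalized reads in Cre libraries 1 to 4, against 169050, 147893, 180319 and 178293 in Loxp libraries 1 to 4, and among the 6 it alone was highest in Cre 3 and lowest in Loxp 2, apart from ND3 with its few reads. ND5 had 50468, 70161, 55510 and 72083 in Cre libraries 1 to 4, against 60812, 68077, 63027 and 84448 in Loxp libraries 1 to 4. None of the 6 was called or had an unadjusted p under 0.05, and their median log2 difference was -0.053. ND3 held only 12.3 to 30.8 normalized reads and ND4L at most 3.67, so their levels say little.

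Fibre type and adipocyte markers also differed between libraries, in part between the same ones as the subunits. All 5 genes of the list named oxidative fast fibre were found and tested, but not all of them are specific to fast fibres. They had 17515 to 101558 summed normalized reads in Cre and 8853 to 117995 in Loxp libraries. Myh2, the myosin heavy chain of fast oxidative fibres, had 4409, 6512, 50678 and 51585 normalized reads in Cre libraries 1 to 4, against 7832, 797, 73690 and 50366 in Loxp libraries 1 to 4. Its lowest library was Loxp 2, as for the subunits, but its highest was Loxp 3. Mb (myoglobin) had 10392, 21628, 43704 and 34703 in Cre libraries 1 to 4, against 18676, 6155, 37580 and 24652 in Loxp libraries 1 to 4, and so had both ends in common with the subunits. Of the 3 other genes of the list, Fabp3 was also highest in Cre 3 and lowest in Loxp 2. Csrp3 was highest in Loxp 4 and lowest in Loxp 2, and Myl3 was highest in Cre 4 and lowest in Loxp 4. Myl3 had 16.2 normalized reads in Loxp 4, where Myh2 had 50366.

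Of the 9 slow fibre markers, all found and tested, 8 lay above 0 (median log2 difference 1.52) and 1, Myh7, had an unadjusted p under 0.05, but none was called. They summed to 2262 to 19778 normalized reads in Cre and 2204 to 3836 in Loxp libraries. Within Cre, libraries 3 and 4 held 7978 and 19778, so Cre 4 was the higher by these genes although its subunits stood far below those of Cre 3. Tnni1 was at 0 in Cre 1. The 9 adipocyte markers, also all tested, all lay below 0 (median log2 difference -1.90), 5 of them at an unadjusted p under 0.05, against 2.91% of all tested genes, and none was called. They summed to 7762 to 8227 in Cre and 7640 to 28562 in Loxp libraries, with 28562 in Loxp 2 and 15368 in Loxp 3, whose subunits stood at opposite sides of their mean. In Cre libraries most of this sum was Plin4 (4379 to 5283) and Fabp4 (1787 to 2413), so it varied little there. Adipoq ran from 46.5 to 169 in Cre and from 64.9 to 1738 in Loxp libraries. The summed reads of the endothelial, pericyte, fibroblast, macrophage and blood lists were each less than 3-fold apart between libraries. The part of fibre type and of fat in the complex I values was not tested.

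**Figure D5:**
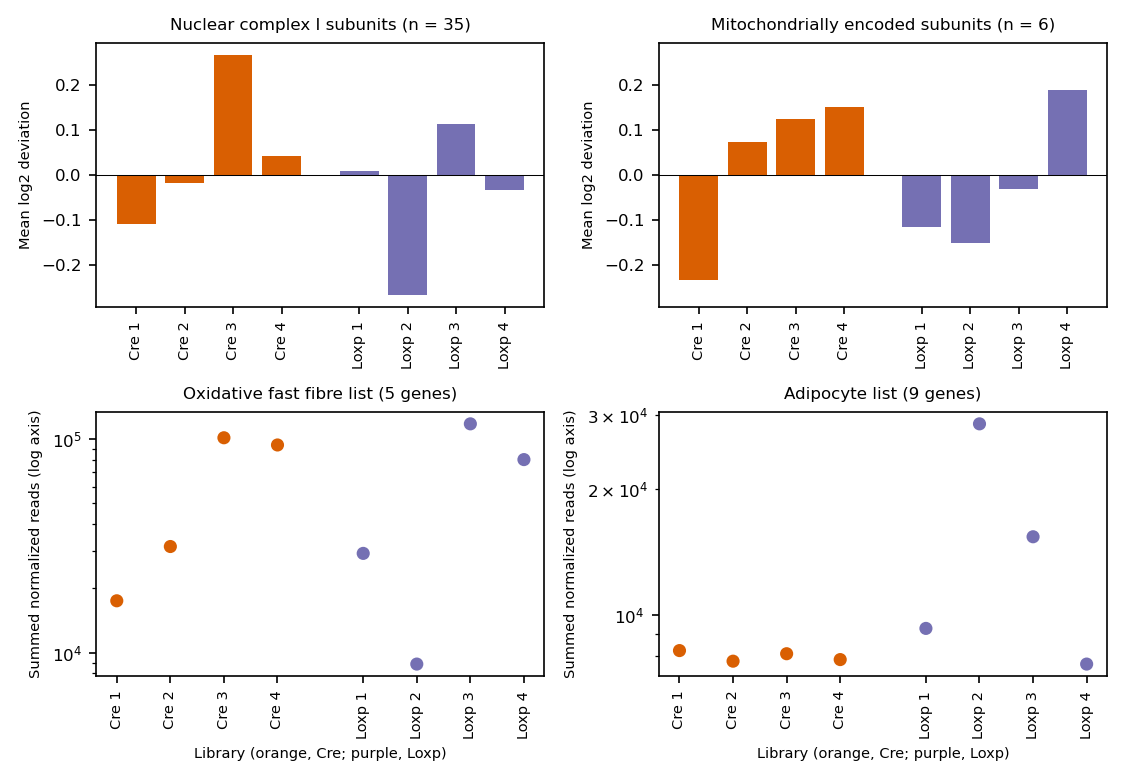
Mean log2 deviation of the 35 nuclear and 6 mitochondrially encoded complex I subunits (upper panels) and summed normalized reads of the oxidative fast fibre and adipocyte lists (lower panels, log axes) in each library, Cre in orange left of Loxp in purple. The nuclear subunits are lowest (-0.27) where the oxidative fast fibre sum is lowest (8853) and the adipocyte sum highest (28562), in Loxp 2. The mitochondrially encoded mean includes ND3, and Plin4 and Fabp4 make up most of the adipocyte sum in Cre.

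Promoter windows were read because the subunits varied together. RefSeq windows of GRCm38.p6, from 250 bases before to 50 after the start of a gene, were held for 38 of the 44 members, and 4 motifs were searched on both strands as exact letters. GCGCANGCG, a site of the nuclear respiratory factor NRF1, a known regulator of respiratory chain genes, was found in 7 of 31 subunits with a window (22.6%), against 15.0% of tested genes. CCGGAAG, the core of sites for ETS factors such as GABPA, was found in 4 (12.9%), against 19.6%. AAGGTCA, a half-site of the estrogen-related receptors, was found in 2 (6.45%), against 3.84%. AAGATGGC, the core of a YY1 site, was found in 7 (22.6%), against 5.15%. Matches of different motifs did not overlap in these windows, while in Ndufa11, Ndufaf4 and Ndufaf5 the NRF1 letters matched on both strands in overlapping places. In all, 18 of the 31 subunits and 3 of the 6 Ndufaf factors with a window held at least 1 motif, against 36.8% of tested genes.

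The YY1 letters lay in the same strand and the same short stretch in all 7 subunits that had them, with the first letter 22 to 38 bases after the annotated start. Of tested genes, 2.43% had these letters on the plus strand after the start. The letters contain ATG, the letters of a start codon, and whether translation starts there was not tested. The 7 sites are shown as 30 bases each along the strand of the gene, with the motif in capitals, because all lie on the strand of the gene just after its start; the position was noticed after the search.
Ndufs7 (chr10:80249455-80249484, plus strand): tgtctgaaggccgaggccAAGATGGCggcg
Ndufs4 (chr13:114388048-114388077, minus strand): ctggcgtttgcctacaggAAGATGGCggcg
Ndufs6 (chr13:73328438-73328467, minus strand): gggtcaagggtcaccggcAAGATGGCggcg
Ndufa9 (chr6:126849104-126849133, minus strand): cgtgaggcattgtgggagAAGATGGCggcc
Ndufb8 (chr19:44555393-44555422, minus strand): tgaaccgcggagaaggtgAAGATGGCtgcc
Ndufc1 (chr3:51408922-51408951, minus strand): aggcggagcctgcggaacAAGATGGCgccg
Ndufa3 (chr7:3617377-3617406, plus strand): cttgtcgccgccaagaacAAGATGGCcggg

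Whole windows of 3 core subunits and of Ndufaf4 are given below in lower case with motif letters in capitals. Ndufs3 has ETS letters on both sides of the start, Ndufs8 has them once after the start on the minus strand (CTTCCGG), and Ndufs7 has the YY1 letters. Ndufaf4, the Ndufaf factor with the smallest unadjusted p, has NRF1 letters that match on both strands, shifted by 1 base. A match is a description of the letters, and these data hold no measure of binding.
Ndufs3 (chr2:90904672-90904971, minus strand): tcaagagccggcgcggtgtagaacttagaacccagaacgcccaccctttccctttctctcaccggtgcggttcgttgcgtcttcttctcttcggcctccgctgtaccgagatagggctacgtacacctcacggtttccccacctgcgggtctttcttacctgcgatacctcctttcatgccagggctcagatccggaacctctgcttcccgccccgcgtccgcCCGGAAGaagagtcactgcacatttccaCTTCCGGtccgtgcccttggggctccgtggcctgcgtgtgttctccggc
Ndufs8 (chr19:3912725-3913024, minus strand): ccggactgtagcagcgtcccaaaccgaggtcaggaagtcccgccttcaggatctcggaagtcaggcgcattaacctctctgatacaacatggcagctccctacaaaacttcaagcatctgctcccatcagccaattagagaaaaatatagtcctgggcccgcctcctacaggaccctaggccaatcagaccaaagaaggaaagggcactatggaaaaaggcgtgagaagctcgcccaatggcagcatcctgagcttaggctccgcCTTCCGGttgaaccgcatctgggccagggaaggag
Ndufs7 (chr10:80249199-80249498, plus strand): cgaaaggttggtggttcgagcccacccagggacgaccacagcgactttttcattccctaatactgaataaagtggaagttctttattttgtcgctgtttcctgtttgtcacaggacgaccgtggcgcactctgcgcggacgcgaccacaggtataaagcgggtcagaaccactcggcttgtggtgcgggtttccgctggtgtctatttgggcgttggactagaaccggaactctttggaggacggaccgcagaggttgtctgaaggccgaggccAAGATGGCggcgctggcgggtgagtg
Ndufaf4 (chr4:24897833-24898132, plus strand): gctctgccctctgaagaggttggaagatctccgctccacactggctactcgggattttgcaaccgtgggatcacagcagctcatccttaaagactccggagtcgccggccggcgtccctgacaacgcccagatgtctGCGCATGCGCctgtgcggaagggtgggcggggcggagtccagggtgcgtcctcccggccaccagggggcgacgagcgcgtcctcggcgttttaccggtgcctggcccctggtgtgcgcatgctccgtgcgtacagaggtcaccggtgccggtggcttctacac

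All 7 subunits with the YY1 letters were highest in Cre 3 and 6 of them lowest in Loxp 2, while Ndufa3 was lowest in Cre 1. Of these 7, 6 had a log2 difference above 0 between Cre and Loxp and Ndufa3 lay at -0.0040. Of all 35 subunits, 35 were highest in Cre 3, 32 were lowest in Loxp 2 and 32 had a log2 difference above 0. Nearly all subunits share these traits, so such counts could not have set the 7 apart from the others.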

How the data were processed

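RNA of 4 Cre and 4 Loxp white quadriceps was made into stranded libraries (TruSeq), per the labels. The submitters' processing notes name STAR, HTSeq, DESeq2, cutadapt and FastQC and the build GRCm38, without role, order or version. The authors deposited log2 values to which 1 had been added before the logarithm, of read counts scaled by a single factor for each library. The values themselves show this: undone, 100% of values under 1000 reads lay within 0.1 of a whole multiple of the worth of 1 read, and these reads give the depth. Counting errors cover counting only.

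Cre and Loxp were compared by limma (version 3.58.1, R 4.3.3; trend on mean expression, two-sided) on the log2 values of genes holding 10 or more normalized reads in 4 or more libraries, with Benjamini-Hochberg adjustment over all tested genes and a threshold of 0.05. The fit was tested only on simulated data in which genes varied independently, so shifts shared by many genes were not covered. Animal numbers point to separate mice; chi-square per gene between libraries of 1 group was 23.8 to 71.8, where sampling noise alone gives about 1, so each counted as a replicate. The sources used here do not give the strand setting of the counting, and reads cannot be told apart where members overlap genes on the other strand (up to 39.0% of exon bases, in Ndufb6).

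The members and lists were chosen with earlier results of these data known. Genes named are core subunits, the 4 accessory and 4 Ndufaf members with the smallest p, those highest and lowest per length (by both lengths), Ndufa4 and Ndufa4l2; others are named in counts or as chosen after their values were seen, among them Tmem126b and Foxred1 (smallest p of their list), Acad9, Ecsit, Ndufaf2, Ndufaf3, ND1, ND5, Ndufb5 and Ndufa11. Alternatives were other pseudocounts (0.5, 10), filters (none; a mean of at least 100), scalings, limma-voom on recovered reads, library weights, an animal-number block and leaving out libraries. Motifs and lengths came from RefSeq windows and GENCODE M21 on GRCm38. Some genes are not reported here.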

Additional observations from a re-analysis of the deposited data

Results flagged for a closer look

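Within a group of 4 libraries, 6 of the 52 groups of values checked held a library far from the 3 others, where chance flags about 1 in 20. In Ndufa2, Loxp 2 lay low with 1909 normalized reads. In Ndufa7, Cre 3 lay high with 2945 and Loxp 2 low with 2195. In Ndufb11, Cre 3 lay high with 5554. In Ndufaf4, Loxp 3 lay high with 1756, and in Ndufaf7, Loxp 2 lay low with 338. Of the 6, 5 concern Cre 3 or Loxp 2, the libraries at the ends of the subunits' common course; the flags share libraries and are not independent.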

How the results depend on the processing

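Acot2 was called in all 20 settings (log2 difference -2.29 to -1.94) and no member in any of them, and 2 genes were called throughout. Of 437 values of named members under the alternatives, 419 kept their sign. Without Cre replicates 3 and 4, 8 turned: Ndufs1 -0.024, Ndufs3 -0.032, Ndufv1 -0.030, Ndufv2 -0.014, Ndufab1 -0.065, Ndufb9 -0.052, Ndufaf1 -0.087 and Ndufa4 -0.036; the medians were then -0.014 for core, -0.012 for accessory and 0.040 for Ndufaf genes. Leaving out 1 library at a time, Ndufaf5 ran from -0.11 to 0.088, Ndufab1 from -0.00063 to 0.13, Ndufaf1 from -0.0086 to 0.15 and Ndufa4 from -0.027 to 0.11. Ndufaf5 was 0.017 with nuclear total scaling and 0.028 without Loxp replicates 2 and 3. The medians ran from 0.030 to 0.19 (core), 0.011 to 0.14 (accessory) and 0.044 to 0.11 (Ndufaf) on leaving out 1 library, with the lowest core and Ndufaf medians without Loxp replicate 2 and the lowest accessory median without Cre replicate 3. With library weights they were 0.060, 0.033 and 0.063. Without Loxp replicate 3, Ndufb10 (0.24) and Ndufaf4 (0.17) had an unadjusted limma p under 0.05, with adjusted p = 0.925 for both. Adjacent animal numbers, which could pair the animals, had deviations correlated at -0.083, -0.081, 0.19 and 0.15 and are only a number; with them as a replicate block, 0 members were called, with Acot2 at -2.13 (adjusted p = 0.0163). The cause of these shifts was not tested. Counting error limits Ndufaf2, Ndufaf3 and Ndufa4l2.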
